A study of Mus musculus with 12 samples.

Results

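The 10 transcription factors Mitf, Sox10, Sox9, Pax3, Tfap2a, Lef1, Zeb1, Zeb2, Tfe3 and Tfeb were chosen by symbol from the 24421 genes of the count table. They were read by tumour line and relative to the pigment genes Dct and Pmel. All 10 had counts in at least 11 of 12 libraries, and 9 of them, all but Lef1, were among the 13534 genes with enough counts to test. The libraries came from ribosome precipitates of subcutaneous mouse melanomas, 7 from B16F10 tumours (labelled highly metastatic) and 5 from B16F0 tumours (labelled poorly metastatic). Both are transplantable melanoma lines of C57BL/6 origin. Every tumour grew for 12 days in C57BL/6 hosts of genotype Rpl22fl/flHA;Cdh5(PAC)-CreERT2, and all hosts received tamoxifen. In these hosts the Cdh5 promoter drives an inducible Cre that switches on an HA-tagged Rpl22 ribosomal protein in endothelial cells, and the tagged ribosomes were precipitated with their mRNA. The tumour cells were not from these hosts and carried no tag by design. Whether replicates came from different animals is not in the labels, and every p-value here reflects only how the libraries varied.

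Melanocytes arise from the neural crest. Pax3 and Sox10 act upstream of Mitf, the master regulator of pigment cells, which together with Sox10 drives pigment genes such as Dct and Pmel. Melanoma cells can move between a differentiated state with high Mitf and Sox10 and an invasive state with low Mitf, and a switch from Zeb2 to Zeb1 and from Sox10 to Sox9 has been described in that setting. Tfe3 and Tfeb are relatives of Mitf that bind the same E-box letters and drive lysosomal genes.

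The promoter windows below show the letters through which these factors are known to connect, the cAMP response element and LEF1/TCF letters upstream of Mitf and the E-box of Mitf in its pigment targets. Windows ran from 250 bases before to 50 bases after each RefSeq gene start on build GRCm38.p6, and windows were held for 6 of the 10 factors and for Dct, Tyr and Tyrp1. Capitals mark the cAMP response element TGACGTCA, the LEF1/TCF letters CTTTGAT, the E-box core CATGTG and the SOX letters ACAAAG, in either orientation. The Mitf window, chr6:97991533-97991832 on the plus strand, belongs to the most 3′ of 3 RefSeq starts, that of the melanocyte isoform. It held TGACGTCA with its first base at -153 and CTTTGAT at -205 from the start, which stood in 1.79% and 3.73% of 32851 mouse windows. The other Mitf windows held neither.
Mitf promoter: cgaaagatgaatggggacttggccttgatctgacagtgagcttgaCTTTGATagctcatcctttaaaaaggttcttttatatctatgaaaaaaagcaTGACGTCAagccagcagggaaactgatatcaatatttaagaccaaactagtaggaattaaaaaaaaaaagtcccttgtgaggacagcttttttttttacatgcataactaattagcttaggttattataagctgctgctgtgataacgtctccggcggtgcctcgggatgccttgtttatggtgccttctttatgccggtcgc
The Dct window, chr14:118052197-118052496 on the minus strand, held CATGTG once on each strand (CACATG is its reverse complement), and the SOX letters ACAAAG at -192 and -141.
Dct promoter: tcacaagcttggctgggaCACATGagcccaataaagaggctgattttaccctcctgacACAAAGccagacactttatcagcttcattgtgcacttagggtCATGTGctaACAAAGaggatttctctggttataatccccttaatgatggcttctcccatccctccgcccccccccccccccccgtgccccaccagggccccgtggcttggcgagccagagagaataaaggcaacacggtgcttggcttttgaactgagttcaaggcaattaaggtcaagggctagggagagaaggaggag
The E-box core CATGTG, found in 14.2% of all windows on either strand, also stood in the Tyrp1 stretch chr4:80834155-80834184 on the plus strand and the Tyr stretch chr7:87493516-87493545 on the minus strand.
Tyrp1 stretch: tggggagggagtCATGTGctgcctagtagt
Tyr stretch: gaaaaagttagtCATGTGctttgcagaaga
CATGTG stood in none of the factors' own windows. The other motifs searched on both strands were CACGTG (7.15% of windows), CTTTGAA (5.14%), ACAAAG (18.7%) and ACAAT (31%). ACAAT also stood in the Dct window on the minus strand at -166, where it is left in lower case. The match of letters is a description and was not tied to any level in these libraries. The counts are per gene and do not separate the Mitf starts.

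Library totals ranged from 5322510 to 20569186 counts, and the libraries were spread over sequencing lanes 1, 2 and 6, with both lines on each lane. Lane 2 held B16F10 replicates 1 and 2 and, of the B16F0 libraries, replicate 1 alone. On that lane the library name prefix also differed between the lines, so line and prefix cannot be told apart there. All 10 melanocytic markers were measured in every library, with a summed level of 8286 to 18820 CPM (counts scaled to library size and TMM factor) in B16F10 libraries and 10605 to 18703 CPM in B16F0 libraries. The labels name endothelial cells as the source, and 20 endothelial markers summed to 760 to 4847 CPM in B16F10 libraries and 663 to 5080 CPM in B16F0 libraries. The summed melanocytic markers exceeded the summed endothelial ones in every library. Tumour cells carried no tag by design, and how their transcripts came into the precipitates was not tested. In 3 libraries (B16F10 replicates 4 and 5 and B16F0 replicate 3) the endothelial score, a mean log2 CPM of 20 markers, was 7.09, 6.54 and 7.16, against 4.23 to 5.32 in the other 9. Adipocyte markers, of which 1 of 5 had enough counts to test, summed to 705, 490 and 776 CPM in these 3 libraries. In the others they summed to 53.5 to 340 CPM. Fibroblast and pericyte markers summed to at most 2208 CPM, myeloid markers to at most 162 CPM and lymphocyte markers to at most 11.4 CPM. Ribosomal RNA (Rn45s) made up 31.4% of B16F10 replicate 5 and 8.91% of B16F0 replicate 5.

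None of the 9 tested factors passed edgeR's quasi-likelihood test between B16F10 and B16F0 tumours at a Benjamini-Hochberg adjusted p under 0.05, in a test where 2.77% of all genes passed (375 of 13534; 1.30% as higher and 1.47% as lower in B16F10). DESeq2 and limma-voom also called 0 of 9. At an unadjusted p under 0.05 there was 1 factor of 9, Zeb2, against 14.8% of all genes. The fold changes of 6 factors lay below 0 and those of 3 above 0, with a median of -0.06 on the log2 scale, and the median of all genes was 0.02. In none of the 10 did the libraries of the lines separate, while 1.27% of all genes lay entirely higher in B16F10 and 1.46% entirely lower. The authors' deposited table gave no factor a false discovery rate under 0.05 either, with values of 0.351 for Zeb2 to 0.964 for Tfe3. In bulk precipitates, fewer cells of a type, less RNA per cell and less carry-over of untagged RNA cannot be told apart.

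**Figure D1:**
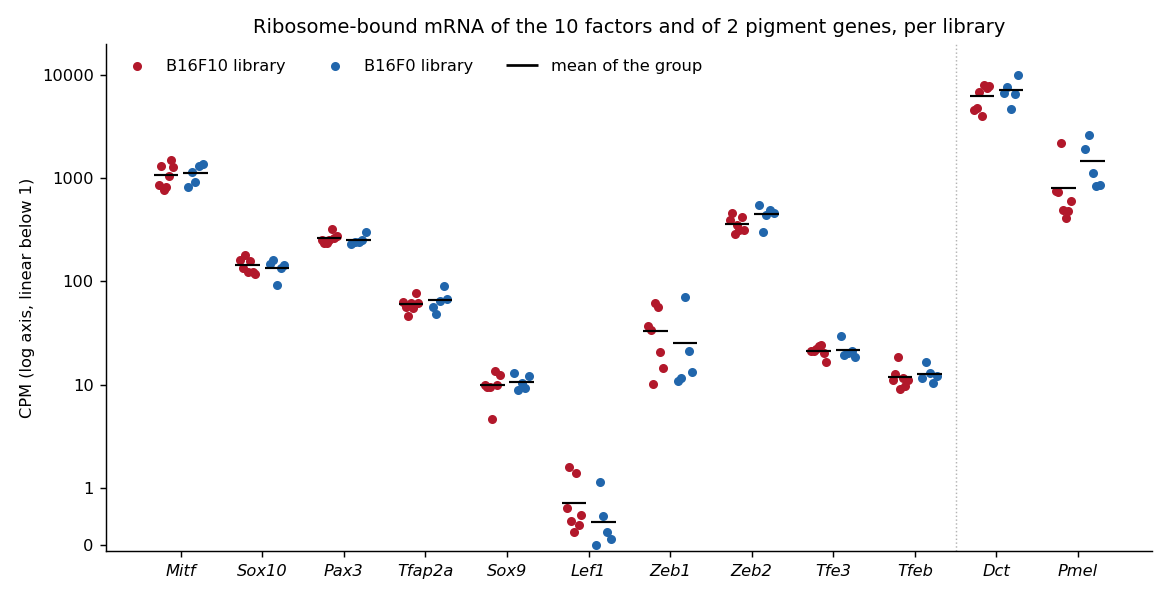
Level in CPM (log axis, linear below 1) of the 10 factors and of Dct and Pmel in each of 7 B16F10 libraries (left points) and 5 B16F0 libraries (right points), with the group means as bars. The points of the lines overlap for every gene, Zeb1 spreads widest among the tested factors, and Lef1 lies near 0.

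Mitf (chr6:97807052-98021349) was the factor with the highest level per kilobase of exons. It ranged from 768 to 1507 CPM with a median of 1048 CPM in B16F10 libraries, and was 824, 1146, 924, 1323 and 1381 CPM in the B16F0 libraries. The ranges overlapped, and the highest library of each line was on lane 6. The log2 fold change was -0.08 ± 0.18 (SE, 95% interval -0.48 to 0.32, adjusted p = 0.896 by edgeR's quasi-likelihood test), a fold of 0.717 to 1.25. Within lanes 1, 2 and 6 the differences were -0.38, 0.37 and -0.09 and did not share a sign.

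Sox10 (chr15:79154908-79165240), the neural crest factor that activates Mitf and Dct, ranged from 119 to 180 CPM with a median of 134 CPM in B16F10 libraries. In B16F0 libraries it was 149, 160, 92.1, 135 and 143 CPM, with the lowest value in the endothelial-rich replicate 3. B16F10 differed from B16F0 by a log2 fold change of 0.07 ± 0.17 (95% interval -0.30 to 0.44, adjusted p = 0.908, edgeR). Sox10 is also a Schwann cell factor, and the summed Schwann markers, several of them shared with pigment cells, ran from 345 to 878 CPM in B16F10 libraries and from 487 to 783 CPM in B16F0 libraries. Their part in the level of Sox10 was not tested.

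Pax3 (chr1:78101267-78197134), a paired-box factor that acts with Sox10 on Mitf, ran from 237 to 322 CPM with a median of 255 CPM in B16F10 libraries and was 229, 241, 241, 255 and 301 CPM in B16F0 libraries. The highest library of each line was on lane 6. The log2 fold change was 0.05 ± 0.12 (95% interval -0.21 to 0.31, adjusted p = 0.906, edgeR).

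Tfap2a (chr13:40715302-40738376), an AP-2 factor that co-occupies melanocyte genes with Mitf, ran from 46.3 to 76.8 CPM with a median of 61.2 CPM in B16F10 libraries. It was 57.1, 48.8, 65.1, 90.0 and 66.9 CPM in B16F0 libraries, the highest being replicate 4. B16F10 differed from B16F0 by a log2 fold change of -0.13 ± 0.15 (95% interval -0.45 to 0.20, adjusted p = 0.756, edgeR). Antisense genes share 14.6% of its exon bases and how the counting treated strand is not known, so its counts are uncertain to that extent. One of them, Gm26688, had 10 to 68 counts a library.

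Sox9 (chr11:112782224-112787760), the neural crest and cartilage factor set against Sox10 in phenotype switching, ran from 4.62 to 13.4 CPM with a median of 9.94 CPM in B16F10 libraries and was 12.8, 8.89, 10.3, 9.19 and 12.1 CPM in B16F0 libraries. The lowest library was B16F10 replicate 4. Between the lines its log2 fold change was -0.18 ± 0.21 (95% interval -0.63 to 0.27, adjusted p = 0.755, edgeR). The log2 ratio of Sox9 to Sox10 averaged -3.90 ± 0.48 in B16F10 libraries and -3.66 ± 0.38 in B16F0 libraries (SD, n = 7 and 5), with overlapping ranges.

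Lef1 (chr3:131110471-131224356), the nuclear partner of beta-catenin in Wnt signalling, was close to undetected. It had 2 to 16 counts with a median of 7 in B16F10 libraries and 0, 19, 6, 4 and 1 counts in B16F0 libraries. The count of 0 in B16F0 replicate 1 allows up to 0.201 CPM (3 counts, counting error only). Lef1 was below the filter on low counts, and without the filter its log2 fold change was 1.10 ± 0.97 (adjusted p = 0.61, edgeR, 23352 genes). A difference of the size shown by the other factors was not detectable at this depth. Gene Gm43352 on the opposite strand shares 13.7% of its exon bases.

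Zeb2 (chr2:44983632-45117395), a zinc finger factor needed for melanocyte differentiation, had the smallest p of the factors. It ran from 288 to 463 CPM with a median of 351 CPM in B16F10 libraries and was 546, 305, 440, 492 and 464 CPM in B16F0 libraries. Apart from replicate 2, every B16F0 library lay above the B16F10 median, yet the ranges overlapped. B16F10 differed from B16F0 by a log2 fold change of -0.35 ± 0.15 (95% interval -0.68 to -0.02, unadjusted p = 0.0402, adjusted p = 0.305, edgeR), and the value was -0.20, -0.36 and -0.46 within lanes 1, 2 and 6. It did not pass after adjustment, with adjusted p of 0.0847 to 0.772 over 30 alternative settings, and lay below 0 in all 30.

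Zeb1 (chr18:5591860-5775467), the zinc finger repressor tied to the epithelial-mesenchymal transition and the invasive state, spread widest among the tested factors. It ran from 10.2 to 61.1 CPM with a median of 33.6 CPM in B16F10 libraries and was 10.8, 11.5, 70.7, 21.1 and 13.2 CPM in B16F0 libraries. The 3 highest libraries were B16F10 replicates 4 and 5 and B16F0 replicate 3, the same 3 with the highest endothelial score. Their levels of Cdh5, a vessel cadherin, were 711 and 482 CPM in the B16F10 libraries and 764 CPM in the B16F0 library, against 78.6 to 206 CPM elsewhere. The next highest, B16F10 replicates 1 and 2 with 36.9 and 33.6 CPM, had the highest summed fibroblast and pericyte markers, 1840 and 2208 CPM. Summed adipocyte markers were highest in the 3 endothelial-rich libraries. The part of fibroblasts, pericytes and adipocytes in the level of Zeb1 was not tested. The log2 fold change of Zeb1 between lines was 0.63 ± 0.57 (95% interval -0.61 to 1.87, adjusted p = 0.681, edgeR). It did not pass in any of 30 alternative settings, and its size moved widely, to 1.22 without B16F0 replicate 3, 0.29 without B16F10 replicate 5 and 0.30 with the endothelial score as a covariate. With the Dct and Pmel level as a covariate its sign turned, to -0.65 (adjusted p = 0.298, edgeR).

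The slope of each factor on the endothelial score, fitted with lane and line in limma, was given to show which factors moved with vessel transcripts. Zeb1 passed, with a slope of 1.08 ± 0.18 log2 units per unit of score (adjusted p = 0.00297, limma), as 1 of 9 factors, where 4.88% of all genes passed (4.37% with a positive and 0.510% with a negative slope). The call held when any single library was left out but rests on the 3 endothelial-rich libraries: without them the slope was 0.83 ± 0.80 with an adjusted p of 1.00 (limma), and 0 genes of any kind passed. B16F10 replicate 4 and B16F0 replicate 3 also share a library name prefix that no other library has. With the prefix in place of the lane the slope was 0.90 ± 0.10 (adjusted p = 0.000149, limma), and without these 2 libraries it was 0.73 ± 0.23 and did not pass (adjusted p = 0.219, limma). Both settings were added after seeing the data. Without B16F10 replicate 5 a further factor, Sox10, passed with a slope of -0.33 (adjusted p = 0.0377, limma). In that setting many more genes passed, 1206 with a positive and 828 with a negative slope of 13545 tested. The slope of Zeb2 was 0.07 ± 0.10 (adjusted p = 0.683) and that of Mitf -0.11 ± 0.12 (adjusted p = 0.636). The log2 ratio of Zeb1 to Zeb2 averaged -3.68 ± 0.93 in B16F10 libraries and -4.54 ± 1.14 in B16F0 libraries (SD, n = 7 and 5), with overlapping ranges.

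**Figure D2:**
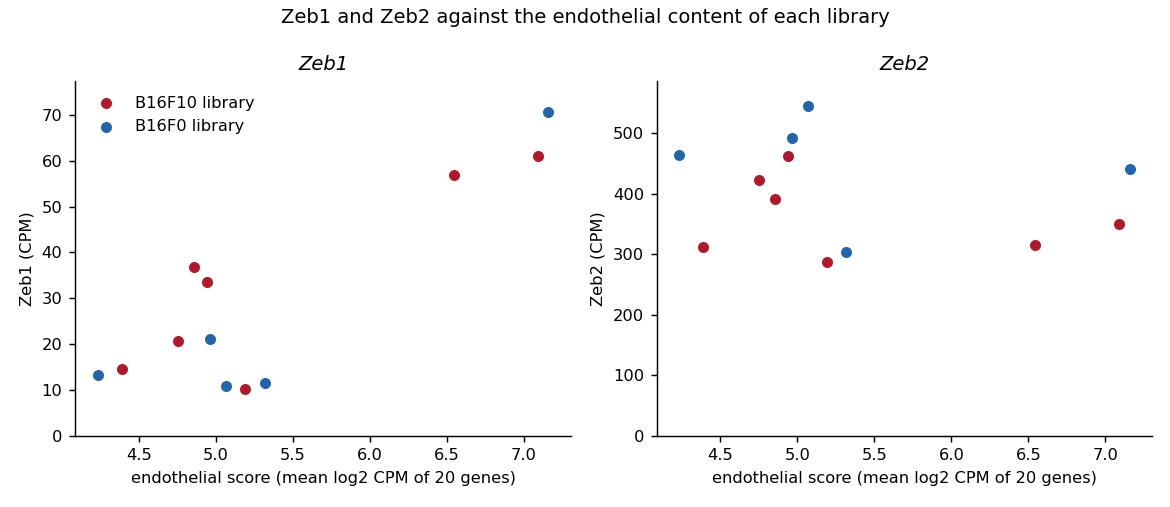
Zeb1 (left) and Zeb2 (right) in CPM against the endothelial score (mean log2 CPM of 20 markers), one point a library, B16F10 in red and B16F0 in blue. Zeb1 stands at 56.9 to 70.7 CPM in the 3 libraries with scores of 6.54 to 7.16, where Zeb2 lies within the range of the other libraries.

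Tfe3 (chrX:7762560-7775202) ran from 16.6 to 24.3 CPM with a median of 21.3 CPM in B16F10 libraries and was 29.6, 19.4, 20.04, 21.1 and 18.3 CPM in B16F0 libraries. B16F0 replicate 1 was the highest of all 12. Between the lines its log2 fold change was -0.02 ± 0.15 (95% interval -0.34 to 0.30, adjusted p = 0.973, edgeR). Tfeb (chr17:47737030-47792419) ran from 9.12 to 18.3 CPM with a median of 11.1 CPM in B16F10 libraries and was 11.7, 16.7, 13.0, 10.3 and 12.2 CPM in B16F0 libraries. Its log2 fold change was -0.06 ± 0.18 (95% interval -0.45 to 0.34, adjusted p = 0.932, edgeR). Tfec, the other MiT relative, was measured at 0.303 to 3.00 CPM in B16F10 libraries and 0.268 to 1.19 CPM in B16F0 libraries.

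Levels set per kilobase of exons (CPM per kb, GENCODE M21 exon unions, B16F10 and B16F0 means) put Mitf at 175 and 181, Sox10 at 46.9 and 44.5, Pax3 at 42.5 and 41.0, Zeb2 at 18.2 and 22.5 and Tfap2a at 12.3 and 13.4. Zeb1 followed at 3.25 and 2.48, Sox9 at 2.39 and 2.58, Tfe3 at 2.31 and 2.34, Tfeb at 2.11 and 2.25 and Lef1 at 0.084 and 0.045. Mitf exceeded Sox10 in 12 of 12 libraries, Pax3 exceeded Zeb2 in 12, Zeb2 exceeded Tfap2a in 12, and Tfap2a exceeded Zeb1 in 12. Neighbours that changed places were Sox10 and Pax3 (Sox10 higher in 7 of 12), Zeb1 and Sox9 (Zeb1 higher in 5), Sox9 and Tfe3 (7) and Tfe3 and Tfeb (7). The pigment genes stood above all, Dct at 1055 and 1211 and Pmel at 354 and 646, with Pmel above Mitf in 11 of 12 libraries.

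Pmel, the structural protein of pigment fibrils, ranged from 414 to 2206 CPM with a median of 603 CPM in B16F10 libraries and was 1924, 2643, 1133, 850 and 857 CPM in B16F0 libraries. B16F10 replicate 3 lay far above the rest of its line. It shares a library name prefix only with B16F0 replicate 2, the highest B16F0 library. The log2 fold change of Pmel was -0.82 ± 0.32 (adjusted p = 0.249, edgeR). It passed without B16F10 replicate 3 (-1.23, adjusted p = 0.0289, edgeR) and with the library name prefix in place of the lane (-0.75, adjusted p = 0.0225, edgeR). In the prefix fit the lane 2 libraries add nothing to the line effect, as neither of their prefixes held both lines. The authors' deposited table gave -0.92 with a false discovery rate of 0.0101. Dct, the melanin-forming dopachrome tautomerase, ran from 4033 to 7975 CPM with a median of 6806 CPM in B16F10 libraries and was 6733, 7711, 4720, 6573 and 9968 CPM in B16F0 libraries. Its log2 fold change was -0.23 ± 0.21 (adjusted p = 0.68, edgeR). The mean log2 CPM of Dct and Pmel together was 10.99 ± 0.45 in B16F10 libraries and 11.57 ± 0.41 in B16F0 libraries (SD, n = 7 and 5), a difference of -0.58 (exact two-sided permutation p = 0.0518 over 792 splits, 0.0722 over the 180 splits within lanes). The within-lane differences were -0.46, -0.95 and -0.42 for lanes 1, 2 and 6, all below 0. On lane 2 the B16F0 line had replicate 1 alone, under another library name prefix than the B16F10 libraries.

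Scaled to the geometric mean of Dct and Pmel in place of TMM, none of the 9 factors passed either (edgeR, 0 of 9, with 1.61% of all genes passing, 1.49% as higher and 0.126% as lower in B16F10). This scaling moved the median log2 fold change of all genes to 0.60, so values are read against that shift. The median of the 9 factors was 0.52, all 9 lay above 0, and 3.997% of all genes lay below 0. The libraries of the lines overlapped for all 10 factors, where 3.50% of all genes lay entirely higher in B16F10 and 0.133% entirely lower. Sox10 had 0.66 ± 0.23 (unadjusted p = 0.0134, adjusted p = 0.115, edgeR), Pax3 0.65 ± 0.29 (adjusted p = 0.151), Mitf 0.52 ± 0.32 (adjusted p = 0.227) and Zeb2 0.23 ± 0.34 (adjusted p = 0.56). An unadjusted p under 0.05 was reached by 2 of the 9, Sox10 and Pax3, and by 31.4% of all genes. The size depends on which pigment gene sets the scale. Scaled to Dct alone, the median of all genes was 0.22, with Mitf at 0.13, Sox10 at 0.28 and Zeb2 at -0.16. Scaled to Pmel alone, that median was 1.00, with Mitf at 0.93, Sox10 at 1.06 and Zeb2 at 0.64, and no factor passed under either (edgeR). Without B16F10 replicate 3, the library with the highest Pmel of its line, 5 factors passed (Mitf 0.72, Sox10 0.75, Pax3 0.81, Zeb1 1.62 and Tfe3 0.72). But 5840 of all 13349 genes tested in that setting then passed as higher and 38 as lower, and the median of all genes was 0.74. B16F0 replicate 2, of the same library name prefix, stayed in that fit.

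**Figure D3:**
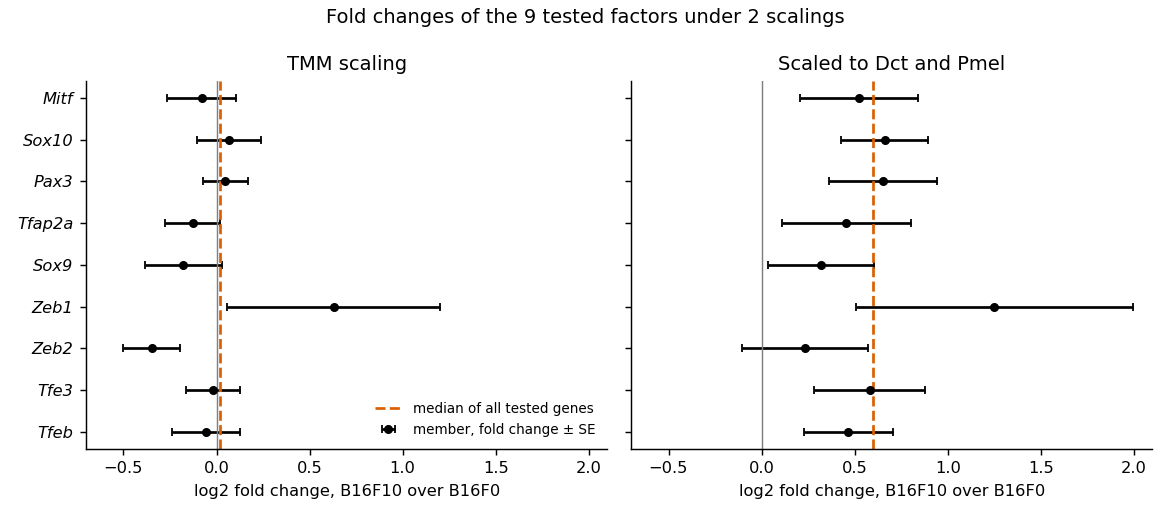
Log2 fold change of B16F10 over B16F0 with its SE (x axis) for the 9 tested factors (y axis), TMM-scaled on the left and scaled to Dct and Pmel on the right, with the median of all tested genes as a dashed line. The factors lie around 0.02 on the left and around 0.60 on the right, both medians of all genes, and Zeb1 has the widest error.

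As counts per 1000 counts of a pigment gene, Mitf was 182 ± 53.3 per 1000 Dct in B16F10 libraries and 161 ± 35.3 in B16F0 libraries (SD, n = 7 and 5). Per 1000 Pmel it was 1824 ± 915 in B16F10 libraries, from 348 in replicate 3 to 3149 in replicate 6, and 969 ± 583 in B16F0 libraries, from 428 to 1612. Sox10 was 24.6 ± 7.61 per 1000 Dct in B16F10 libraries and 19.5 ± 2.99 in B16F0 libraries, and 224 ± 91.6 against 109 ± 49.95 per 1000 Pmel. The lines overlapped in each of these ratios, and B16F10 replicate 3 was the lowest of its line in both ratios to Pmel.

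**Figure D4:**
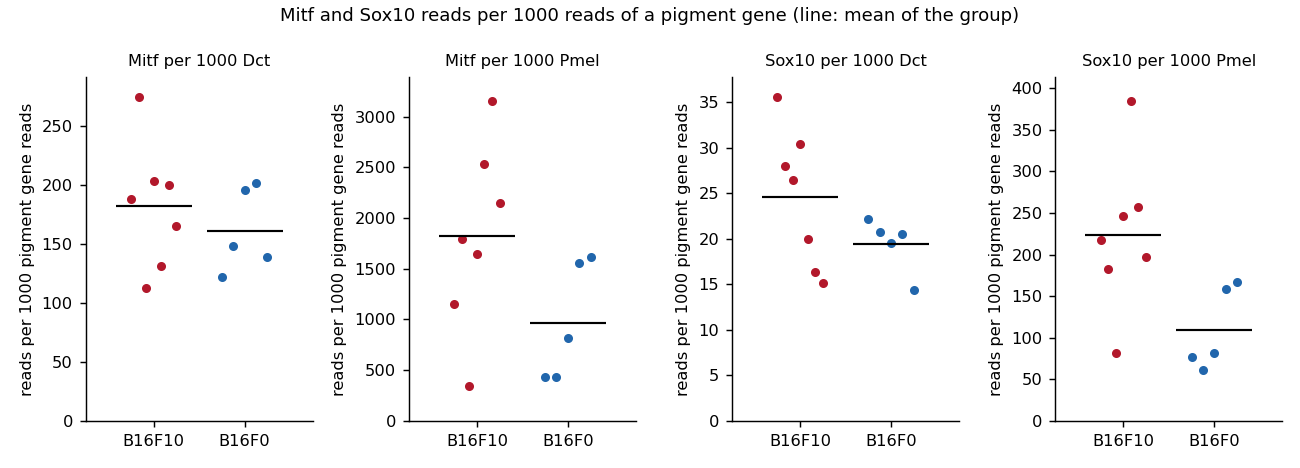
Counts of Mitf and Sox10 per 1000 counts of Dct or Pmel (y axes), one point a library, B16F10 left and B16F0 right, with group means as lines. Per 1000 Dct the lines overlap. For Sox10, B16F10 replicates 1 to 4 lie above every B16F0 library there (26.5 to 35.6 against 14.4 to 22.1), and replicates 5 to 7 lie within the B16F0 range. In the ratios to Pmel all B16F10 libraries but replicate 3 lie above the B16F0 mean, with overlap between lines.

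Fitted as a slope on the Dct and Pmel level with lane and line, an analysis added after seeing the data in which 27.0% of all genes passed, Zeb1 had -2.20 ± 0.33 (adjusted p = 0.00247, limma) and Tfeb 0.52 ± 0.18 (adjusted p = 0.0454, limma). The call of Tfeb was lost on leaving out any of 9 single libraries. Without the 3 endothelial-rich libraries 0 of 13712 genes passed, so the loss of both calls is not particular to these factors. Tfeb was then at 0.21 ± 0.45 (adjusted p = 0.806, limma) and Zeb1 at -2.73 ± 0.39 (adjusted p = 0.219, limma).

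By Pearson correlation of log2 CPM over the 12 libraries and 10138 genes, a description that the libraries' shared depth and lanes also enter, the genes most like Mitf were Dse (r = 0.926), Xrcc2 (0.857), E2f5 (0.847), Uap1 (0.844) and Phlpp2 (0.843). Those most like Sox10 were Pcyt2 (0.918), Aspscr1 (0.912), Zbtb45 (0.907), Rtkn (0.900) and Wiz (0.895).

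Of 132 tested genes known to lie downstream of, upstream of or beside the factors, 7 passed edgeR's test between the lines. That is 5.30%, against 2.77% of all genes. All 7 were lower in B16F10, where 1.47% of all genes were. The lists were chosen with earlier results of these data known, so these shares are a description. Of 24 tested pigment cell targets of Mitf and Sox10, 3 were lower and 0 higher, and the list's median was -0.28, against 0.02 for all genes. Oca2, the melanosomal ion channel, ran from 69.6 to 168 CPM with a median of 115 CPM in B16F10 libraries and was 260, 212, 179, 274 and 295 CPM in B16F0 libraries. Every B16F10 library lay below every B16F0 library, and the log2 fold change was -1.10 ± 0.17 (adjusted p = 0.00379, edgeR). Cdk2, the cell cycle kinase that Mitf activates, averaged 278 ± 45.3 CPM in B16F10 libraries and 443 ± 64.1 CPM in B16F0 libraries, a log2 fold change of -0.70 ± 0.16 (adjusted p = 0.0382, edgeR). Erbb3, the neuregulin receptor, averaged 74.2 ± 16.5 CPM in B16F10 libraries and 122 ± 23.2 CPM in B16F0 libraries, a log2 fold change of -0.71 ± 0.17 (adjusted p = 0.0473). The calls of Cdk2 and Erbb3 were each lost in 18 of 30 alternative settings, and that of Oca2 in 1. Cdk2 and Pmel share 34 exon bases on opposite strands, so reads there cannot be assigned to one of them without the strand.

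Of 12 tested further neural crest factors, 3 were lower and 0 higher. Sox5, a SoxD factor that modulates Sox10 in melanocytes, averaged 51.5 ± 3.97 CPM in B16F10 libraries and 78.8 ± 5.99 CPM in B16F0 libraries (SD, n = 7 and 5), with no overlap and a log2 fold change of -0.60 ± 0.11 (adjusted p = 0.00911, edgeR). Its call was lost without lane 2 (adjusted p = 0.0603). Pou3f2, the octamer factor BRN2, averaged 1.75 ± 0.54 CPM in B16F10 libraries and 5.56 ± 1.48 CPM in B16F0 libraries, a log2 fold change of -1.70 ± 0.29 (adjusted p = 0.00629). Irf4, which acts with Mitf on Tyr, averaged 3.17 ± 1.63 CPM in B16F10 libraries and 10.7 ± 3.06 CPM in B16F0 libraries, a log2 fold change of -1.83 ± 0.37 (adjusted p = 0.0177). Irf4 lost its call in 5 of 30 settings, among them leaving out B16F10 replicate 4 or B16F0 replicates 1 or 4 (adjusted p = 0.0528, 0.057 and 0.0737). Id1, Id3 and Mycn of this list followed the endothelial score, where 4.37% of all genes passed with a positive slope. In the other lists Ednrb and Sparc also followed it, and Slc24a5 and Cdh2 fell with it.

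Axin2, the feedback target of beta-catenin, was the 1 of 18 tested Wnt and LEF1 genes that passed. It averaged 20.5 ± 4.67 CPM in B16F10 libraries and 36.2 ± 4.84 CPM in B16F0 libraries, with no overlap, and a log2 fold change of -0.90 ± 0.14 (adjusted p = 0.00292, edgeR). Scaled to Dct and Pmel, which raised the median of all genes to 0.60 and left 0.126% of all genes called lower, none of the 7 genes passed (adjusted p of at least 0.124, edgeR). Their log2 fold changes stayed below 0, at -1.21 for Irf4, -1.05 for Pou3f2, -0.57 for Oca2, -0.34 for Axin2, -0.15 for Cdk2, -0.11 for Erbb3 and -0.02 for Sox5.

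**Figure D5:**
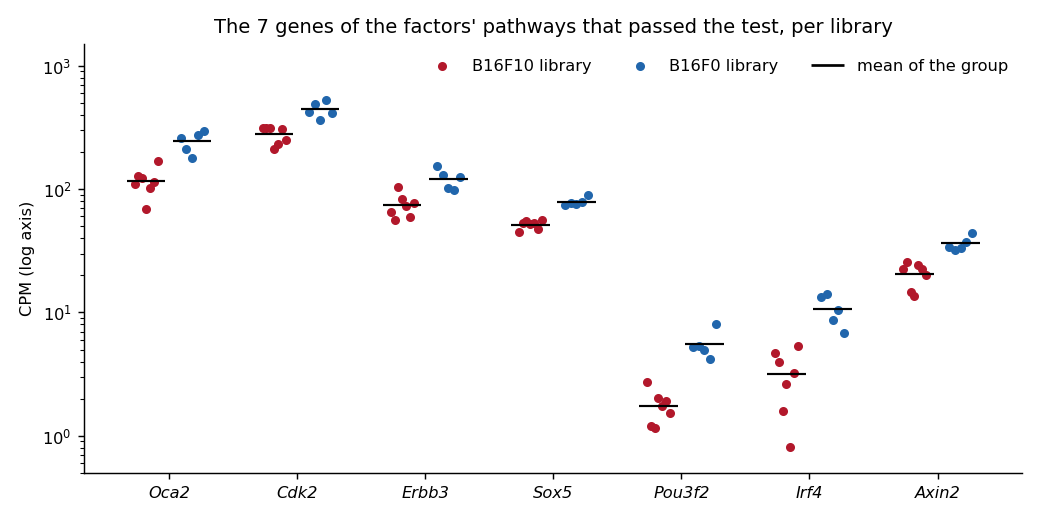
CPM (log axis) of the 7 genes around the factors that passed edgeR's test, B16F10 libraries left and B16F0 libraries right, with group means. The B16F10 points lie below the B16F0 points in all but Erbb3, whose ranges overlap.

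In the other lists none passed. Of 27 tested lysosome and autophagy genes of the CLEAR network that Tfeb and Tfe3 drive, 25 had a log2 fold change below 0, against 47.5% of all genes, and 7 an unadjusted p under 0.05, against 14.8% of all genes, with a median of -0.32 under TMM and 0.25 under scaling to Dct and Pmel, where all genes had 0.60. Sqstm1, an autophagy receptor, had a log2 fold change of -0.59 (adjusted p = 0.124, edgeR). The same 14.8% is the background of the counts in the next 3 lists. Of 16 MiT/TFE partners and regulators 4 had an unadjusted p under 0.05, led by Ppp3cb (-0.54, adjusted p = 0.074) and Fnip1 (-0.48, adjusted p = 0.166). Of 20 genes of the invasive state and the epithelial-mesenchymal transition 4 did, led by Nfatc2 (-0.36, adjusted p = 0.178) and Egfr (1.34, adjusted p = 0.193). Egfr was 9.78 and 11.4 CPM in B16F10 replicates 1 and 2 and at most 3.24 CPM in any other library. Those 2 libraries had the highest summed fibroblast and pericyte markers, whose part in Egfr was not tested. Axl, a receptor of the invasive state, averaged 30.0 ± 11.4 CPM in B16F10 libraries and 17.97 ± 4.84 CPM in B16F0 libraries, and the log2 ratio of Mitf to Axl was 5.22 ± 0.53 in B16F10 libraries and 5.98 ± 0.65 in B16F0 libraries (SD, n = 7 and 5), with overlap. Of 16 genes of the cAMP arm upstream of Mitf 3 had an unadjusted p under 0.05, led by Sik2 (-0.37, adjusted p = 0.166) and Gnas (-0.65, adjusted p = 0.195).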

How the data were processed

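The data were 12 libraries from ribosome precipitates, 7 B16F10 and 5 B16F0, prepared with the ScriptSeq kit, per the labels' protocols. Values deposited by the authors are whole-number counts per gene. The submitters' processing notes name build mm10, the aligner STAR 2.2.1, the counter featureCounts 1.6.0, the trimmer cutadapt 1.16, and edgeR under R 3.3.2. For annotation, strand setting and filters nothing was stated in the sources used here. The authors' deposited comparison table gave fold changes and false discovery rates, quoted where named, and their normalized table was not used.

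Counts were tested as deposited in R 4.3.3 with edgeR 4.0.16: TMM scaling, filterByExpr with a minimum count of 10, sequencing lane as a factor, the quasi-likelihood F test and Benjamini-Hochberg adjustment over 13534 genes at 0.05. The 95% intervals use the standard error and the degrees of freedom of the test. CPM values are TMM-scaled. A second fit took its scaling from the geometric mean of Dct and Pmel counts. Slopes used limma 3.58.1 with trend on log2 CPM (prior count 2), with lane and line in the fit. The Dct and Pmel level was compared by exact permutation. DESeq2 1.42.0, limma-voom, other scalings, filters, covariates and left-out libraries were alternatives, with their effect in the closing section. The functions were tested on simulated data.

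Coordinates and exon lengths come from GENCODE M21 (GRCm38) and promoter letters from RefSeq (GRCm38.p6). The members and the gene lists were chosen with earlier results of these data known. All 10 factors with Dct and Pmel are described whatever their values. From each list the called genes are named, or the 2 of smallest p where none was called, and 5 genes of highest correlation for Mitf and for Sox10. A gene that this rule names is not reported here. No pair of libraries of a line was within counting noise of each other (smallest chi-square per degree of freedom 8.23), and each library was counted once, which does not show that they came from separate animals. Depth ran from 5322510 to 20569186 counts a library, and genes near 0 have wide counting error.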

Additional observations from a re-analysis of the deposited data

Results flagged for a closer look

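Each of the 24 groups of library values (12 genes in 2 lines) was searched for a highest or lowest library whose gap to its nearest neighbour was a large part of the range of its group. Chance gives about 1 such library in 20 independent groups. The 24 groups share their libraries and are not independent, so the 4 that were found are a description. Zeb1 was 70.7 CPM in B16F0 replicate 3, where the nearest library was 21.1 CPM and the gap was 0.828 of the range; this library also had the highest endothelial score of all 12. Tfe3 was 29.6 CPM in B16F0 replicate 1, with the nearest at 21.1 CPM (0.750 of the range). Tfeb was 18.3 CPM in B16F10 replicate 3, with the nearest at 12.7 CPM (0.612). Pmel was 2206 CPM in the same library, with the nearest at 748 CPM (0.814). The only other library of its name prefix, B16F0 replicate 2, was highest of its line in both, at 16.7 and 2643 CPM.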

How the results depend on the processing

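The count of factors called between the lines was 0 in all 30 alternatives, which covered the batch term, the scaling, the filter, the test, the covariates and each library left out. Scaled to Dct and Pmel the count was 0 in 18 of 19, and 0 to 5 over the left-out libraries, with 5 without B16F10 replicate 3. In that last setting 5840 of all 13349 tested genes passed as higher. The count of factors following the endothelial score was 1, and 1 to 2 over the left-out libraries, and 0 without the 3 endothelial-rich libraries; the slope of Zeb1 was then 0.83. It was also 0 without the pair of endothelial-rich libraries that share a name prefix, with Zeb1 at 0.73. On the Dct and Pmel level the count was 2, and 1 to 3 over the left-out libraries, and 0 without the 3 endothelial-rich libraries. Without those 3 libraries no gene of any kind passed on either slope. The difference in Dct and Pmel level of -0.58 became -0.21 with Dct alone (exact permutation p = 0.399), -0.96 with Pmel alone (exact permutation p = 0.0644) and -0.50 with 10 melanocytic markers (exact permutation p = 0.0492) and ran from -0.73 to -0.45 over the left-out libraries, lowest without B16F10 replicate 3 (exact permutation p = 0.00216). It also passed without B16F0 replicate 3 (-0.70, p = 0.0394) and without B16F0 replicate 4 (-0.68, p = 0.0424), both by exact permutation. The cause of these changes was not tested. B16F0 replicate 2, of the same name prefix, stayed in where B16F10 replicate 3 alone was left out.

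The replicate numbers were checked for pairing. The correlations of the deviations of same-numbered libraries were -0.271, -0.270, -0.238, -0.287 and 0.322 for replicates 1 to 5. No library correlated best with its own number, so the check gave no sign of pairing by number. Some same-numbered libraries also shared a lane, such as replicate 1 of both lines on lane 2 and replicate 5 of both on lane 6. The replicate 5 libraries, with the only positive value, were also those rich in Rn45s. The part of lane and Rn45s in these correlations was not tested. Pairs that share a library name prefix were not part of this check. With the replicate number as a block in place of the lane, 30 genes were higher and 28 lower in B16F10, against 176 and 199, the count of factors was 0, and Zeb2 was -0.31 (adjusted p = 0.772, edgeR). Under this block Oca2, Cdk2, Erbb3, Sox5, Pou3f2 and Axin2 did not pass, and Irf4 did. The count of all genes called ranged more widely, with 407 higher and 445 lower in DESeq2, 136 and 131 with no lane term, 325 and 305 with the library name prefix, 96 and 81 without lane 2, and 111 and 125 without the libraries rich in Rn45s. With the prefix, the lane 2 libraries add nothing to the line effect. Levels of a few CPM, such as those of Lef1, Tfec, Pou3f2 and Irf4, are limited by depth.

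Values that passed no test changed sign in some settings. Between the lines Tfe3 was 0.12 with the library name prefix, 0.080 with the replicate block, 0.030 with upper quartile scaling and 0.14 without lane 2. With no filter Sox10 was -0.0013 and Pax3 -0.021. With the Dct and Pmel level as a covariate Sox9 was 0.015, Zeb1 -0.65, Tfeb 0.21 and Dct 0.13. Without the 3 endothelial-rich libraries Mitf was 0.024, Sox10 -0.039 and Tfeb 0.0067. Over the left-out libraries Sox10 ran from -0.066 to 0.14, Tfe3 from -0.068 to 0.12 and Tfeb from -0.19 to 0.064. Scaled to Dct alone Sox9 was -0.011 and Zeb2 -0.16, and under Dct and Pmel scaling Zeb2 ran from -0.061 to 0.45 over the left-out libraries. The slope on the endothelial score turned for Mitf without the 3 endothelial-rich libraries (0.14), for Sox10 with the prefix (0.11) and without its pair of libraries (0.14), and for Zeb2 with no lane term (-0.056), with the prefix (-0.079) and without that pair (-0.067).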
